A study of Mus musculus with 4 samples.

Results

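The replication and mitosis machinery was examined in GFP+ cells from bone marrow, labelled N-myc-induced B-ALL cells and C57BL/6 in strain, B-ALL being acute lymphoblastic leukaemia of B cells. They arose in recipient mice given B220+ marrow cells transduced with N-myc, and the donors were Anp32b+/+ (wild type) or Anp32b-/- (knockout), with 2 RNA-seq libraries of each genotype, and both genotypes carried the same N-myc driver. The sources used here give no age, no time after transfer, and do not say whether each library is a different animal. P-values here therefore reflect spread among these samples alone, and that spread may be technical. The members were the genes whose symbols belong to fixed families: minichromosome maintenance (Mcm), GINS, origin recognition (Orc), replication factor C (Rfc), E2F, the cyclins A, B and E, their kinases and phosphatases, centromere proteins (Cenp), kinesins (Kif), the spindle checkpoint and SMC proteins. This gave 116 of the 16613 gene symbols measured, of which 39 were placed in S phase, 52 in mitosis and 25 among kinesins with other roles.

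Before S phase, the origin recognition complex and CDC6 load the MCM2-7 ring onto DNA, and the kinases CDC7 and CDK2 then bring in CDC45 and GINS to form the active helicase, while the RFC complex loads the sliding clamp PCNA. The E2F transcription factors drive the genes of this step and answer to the retinoblastoma protein. In mitosis, cyclin B and CDK1 start chromosome condensation by the SMC proteins, kinetochores assemble on CENP-A chromatin, kinesin motors order the spindle, and the BUB proteins hold back CDC20 until every chromosome is attached. Cycling pro-B and pre-B cells and their leukaemias use this machinery heavily.

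Promoter sequence, which was not used to choose the members, held cell cycle motifs more often in the S phase and mitosis genes than in tested genes as a whole. RefSeq starts (GRCm38.p6) were found for 97 members, and the 250 bases before each start were searched on both strands for 3 motifs. The E2F motif was spelled TTCCCGC in its first form, TTCGCGC in the next, with TTGCCGC and also TTGGCGC as further forms. The CHR motif, the cell cycle homology region of G2 and M phase genes, was spelled TTTGAA or else as the palindrome TTCGAA, and the last motif was the CCAAT box. The E2F motif was in 43.2% of 37 promoters of S phase genes and in 21.2% of 52 promoters of mitosis genes, beside 13.6% of 12473 promoters of tested genes and 7.89% of all 32851. The CHR motif was in 24.3% of the S phase promoters and 34.6% of the mitosis promoters, beside 12.7% for tested genes and 17.1% for all. The CCAAT box was in 62.2% and 65.4%, beside 36.1% and 33.8%. Promoters of kinesins with other roles lay near the tested genes, at 13%, 17.4% and 34.8% for the 3 motifs. Matches of the E2F motif can overlap each other and the CCAAT box, base composition was not matched, and a match is a description of the sequence only. The 120 bases before the start are shown for an S phase gene with E2F motifs, for 2 mitosis genes with CHR motifs, and for Cenpv, the S phase or mitosis gene with the largest genotype difference, which held none of the 3. All lie on the minus strand and read 5′ to 3′ towards the start, with matches to the 3 motifs in capitals.
Mcm6, chr1:128359706-128359825: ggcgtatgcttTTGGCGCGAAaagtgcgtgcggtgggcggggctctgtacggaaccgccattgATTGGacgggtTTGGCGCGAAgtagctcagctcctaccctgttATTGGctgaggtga
Cdk1, chr10:69352913-69353032: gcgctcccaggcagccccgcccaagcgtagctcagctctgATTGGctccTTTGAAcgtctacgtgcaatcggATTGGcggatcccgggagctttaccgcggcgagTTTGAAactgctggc
Cdc20, chr4:118437344-118437463: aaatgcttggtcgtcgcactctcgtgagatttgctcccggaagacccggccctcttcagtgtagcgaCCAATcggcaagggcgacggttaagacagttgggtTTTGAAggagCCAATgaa
Cenpv, chr11:62539262-62539381: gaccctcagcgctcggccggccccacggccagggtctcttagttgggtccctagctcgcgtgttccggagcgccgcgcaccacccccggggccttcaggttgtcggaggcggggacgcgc

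The libraries held 19581574.53 to 19758671.06 estimated reads each, and the members took 1.22% to 1.27% of them. Libraries of 1 genotype differed by more than sampling of reads gives (chi-square over its degrees of freedom, 5.51 for wild type and 2.11 for knockout). Anp32b was at 774.0 and 853 CPM (reads scaled to library size with TMM factors) in wild type and at 74.4 and 70.6 CPM in knockout. B lineage markers were present in all libraries, and their summed level was 6277 and 6242 CPM in wild type and 5735 and 5826 CPM in knockout. Pax5 was at 552 to 621 CPM with no call, while Ebf1 (311 to 218 CPM, genotype means), Igll1 (553 to 428 CPM), Vpreb1 (398 to 309 CPM) and Blnk (395 to 326 CPM) were called lower in knockout. Other cell types were not equal. The summed level of 14 neutrophil markers was 633 to 645 CPM in wild type and 127 CPM in both knockout libraries. That of 12 monocyte and macrophage markers was 113 to 120 and 53.2 to 53.7 CPM. Among these 12, Lyz2 fell most in CPM (55.3 to 11.6, genotype means). Ly6c2, Csf1r, Itgam, Ms4a6c and F13a1 were also called lower, while Cd68, C1qa, C1qb, C1qc, Ccr2 and Adgre1 were not called. The 4 Y-linked genes, which are not cell type markers, summed to 156 to 173 CPM in wild type and 41.7 to 42.5 CPM in knockout. That difference follows genotype, so the parts of the 2 in the results cannot be told apart. Erythroid markers, among them Tfrc and Car2, summed to 944 to 994.7 CPM in wild type and 761 to 762 CPM in knockout. T cell markers summed to 123 to 129 and 168 to 169 CPM, most of it from Cd2 and Lat. Lat was called higher in knockout (36.68 to 73.15 CPM, genotype means) and Cd4 lower (3.32 to 1.08 CPM), while Cd2 and Cd8a were not called. Cd3e was at or below 0.202 CPM in wild type and at 0 in both knockout libraries. None of the markers in these lists was at 0 in all 4 libraries, and the part of these markers and of other cells in the results was not tested. In bulk samples, fewer cells of a type and less RNA per cell cannot be told apart.

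Most of the S phase and mitosis genes differed little between the genotypes. Among all 12123 genes in the test, 2856, or 23.6%, passed edgeR's quasi-likelihood test at an adjusted p under 0.05 (10.9% higher and 12.6% lower in knockout). Of the 38 tested S phase genes, 3 rose and 1 fell. Of the 51 tested mitosis genes, 4 rose and 6 fell, and of the 18 tested kinesins with other roles, 3 rose and 1 fell. The 9 members below the filter on low counts were Ccna1, Smc1b and 7 kinesins with other roles, none with more than 10 reads in a library. Ccna1, the germline cyclin A gene, had 3 reads in all, and Smc1b, the meiotic cohesin gene, had 1. The 89 tested S phase and mitosis genes had genotype means from 4.91 to 565 CPM, and 15.7% of them were called, beside 24.0% of tested genes of at least 5 CPM. The 2 libraries of each genotype did not overlap in 21 S phase and 34 mitosis genes (55.3% and 66.7%), beside 60.5% of all tested genes. Of the 21 S phase genes 7 were higher and 14 lower in knockout, and of the 34 mitosis genes 15 were higher and 19 lower. Among all tested genes, 30.0% were higher and 30.5% lower in this way. DESeq2 did not call 7 of the 18 called members (Ccne1, Cenpe, E2f6, Kif13a, Kif17, Kif4 and Smc1a), and with no filter on low counts 11 were not called (Bub1b, Cenpa, Gins2, Kif21a, Kif21b and those 7 other than E2f6), with edgeR adjusted p from 0.0545 for Kif21a to 0.116 for Kif13a. The median log2 fold change (knockout minus wild type) was -0.03 for S phase genes and -0.01 for mitosis genes, beside 0.0021 for all tested genes. The median size of the change, with its sign removed, was 0.05 for S phase, 0.11 for mitosis and 0.11 for the 9435 tested genes of at least 5 CPM. A change over 1.5-fold was seen in none of the S phase genes, in 1 mitosis gene and in 5.46% of those 9435 genes.

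**Figure D1:**
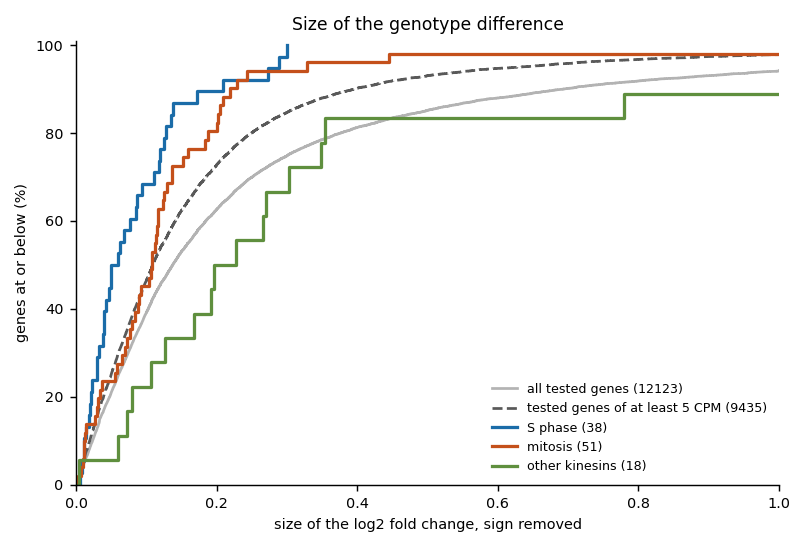
Cumulative share of genes (vertical axis, percent) by the size of their log2 fold change without sign (horizontal axis) for S phase, mitosis and other kinesin members and for all tested genes, with tested genes of at least 5 CPM as a dashed line. The S phase curve lies to the left, with a median of 0.05, and the mitosis curve meets the dashed line near the shared median of 0.11 and lies above it over most of the larger changes.

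The precision was high enough to bound most of these values. The 95% interval of the fold change lay within 1.25-fold in either direction for 33 of 38 S phase genes (86.8%) and 41 of 51 mitosis genes (80.4%), beside 62.2% of the tested genes of at least 5 CPM. These lists were not matched for level, the median percentile being 79.6, 77.5 and 60.5 in that order. The median SE was 0.0587, 0.0562 and 0.0698, so the intervals of the members were narrower whatever the size of the change. The interval of each gene was also read at a wider limit. It lay within 1.5-fold for all 38 S phase genes and for 49 mitosis genes, the exceptions being Cenpv and Cenpj. These intervals are per gene and are not adjusted for the number of genes. In data simulated for this comparison, 64% of genes of at least 5 CPM that changed 1.25-fold were called, and 100% of those that changed 1.5-fold.

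**Figure D2:**
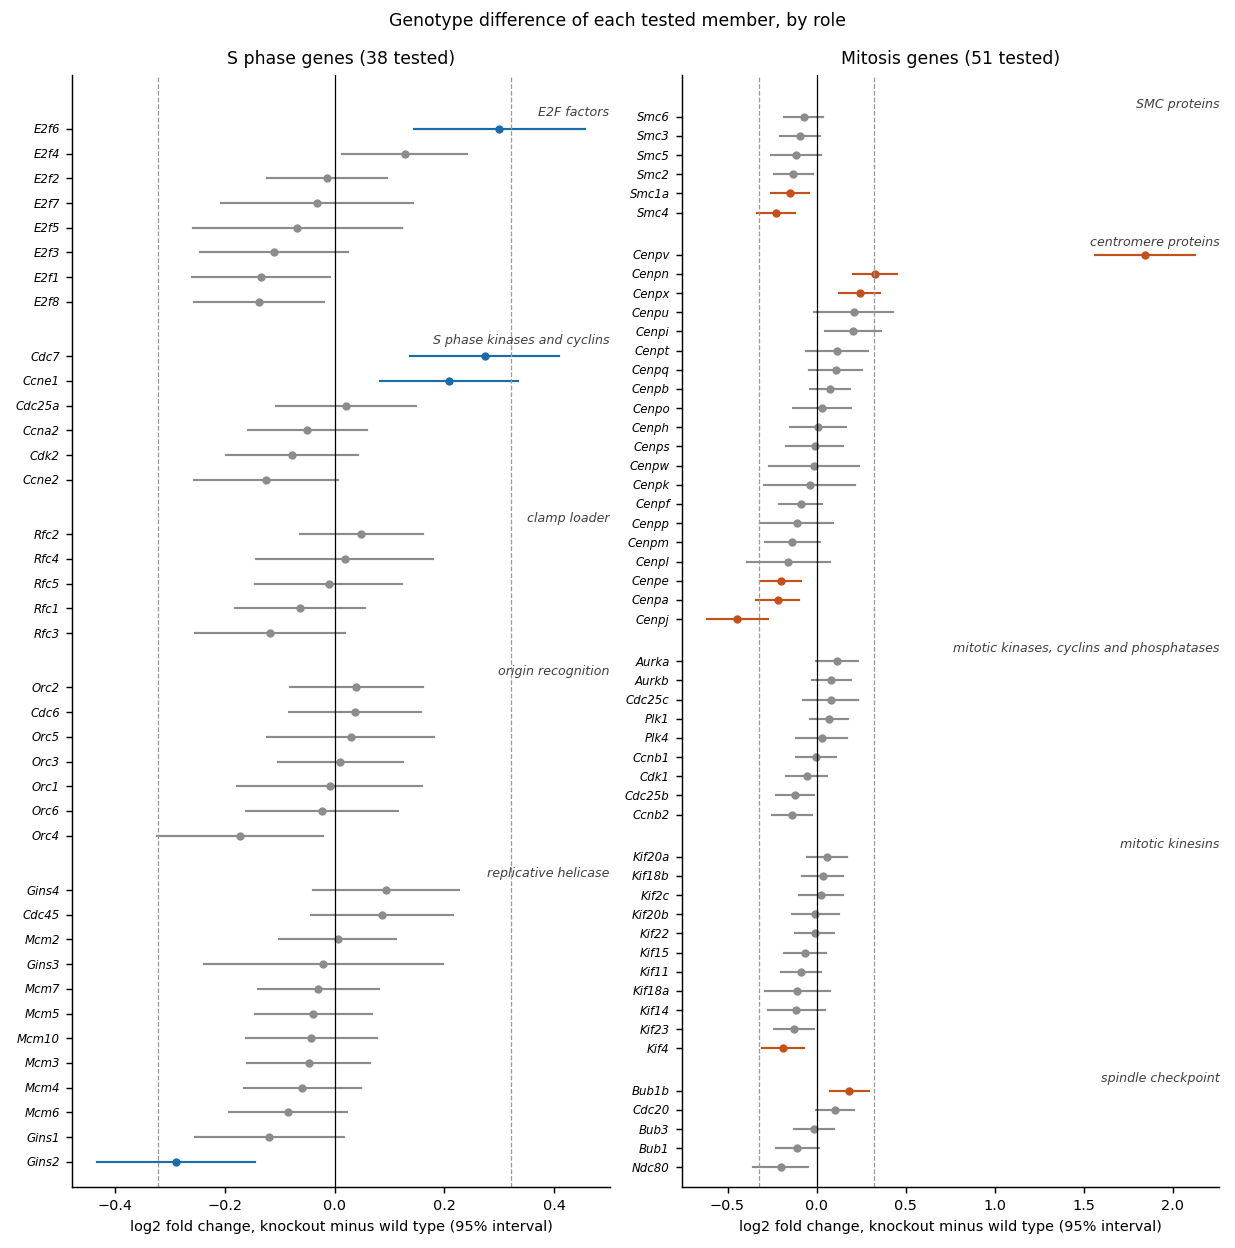
Log2 fold change of each tested S phase gene (left) and mitosis gene (right) with its 95% interval, grouped by role. Coloured points passed the test and grey points did not, dashed lines mark 1.25-fold, and the axes of the panels differ. Cenpv stands apart at 1.84.

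In the origin recognition complex and its partner Cdc6, none of 7 tested genes was called. At an unadjusted p under 0.05 the same edgeR test gave 1, Orc4, and DESeq2 and limma-voom called none of the 7 after adjustment. Orc6, the highest of this role per kilobase of transcript (56.5 CPM per kb), was at 69.0 and 77.6 CPM in wild type and 72.0 and 72.4 CPM in knockout (log2 fold change -0.02, SE 0.06). The wild-type values enclosed the knockout values. Orc1, the ATPase subunit whose level varies through the cycle in many cells, was the lowest at 7.53 CPM per kb, with a log2 fold change of -0.01 (SE 0.08). Orc4 was at 47.8 and 53.7 CPM in wild type and 45.5 and 44.6 CPM in knockout (-0.17, edgeR adjusted p = 0.0963), and it was called lower without wild-type replicate 1 (-0.25, adjusted p = 0.00813).

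The helicase genes Mcm2 to Mcm7 were among the most abundant members and were near equal in all libraries. Mcm7 led them with 559.6 and 570.1 CPM in wild type and 540.0 and 566.6 CPM in knockout, and the groups overlapped (log2 fold change -0.03, 95% interval -0.14 to 0.08). Mcm2 was at 487 and 494 CPM in wild type and 493 and 492 CPM in knockout (0.0059, 95% interval -0.10 to 0.11). Per kilobase the order was Mcm7 (189 CPM per kb), Mcm6 (162), Mcm3 (152), Mcm2 (146), Mcm5 (130.3) and Mcm4 (76.4), and all 6 lay at or above the 90.8th percentile of tested genes. The widest of the 6 differences was that of Mcm6 at -0.08 (SE 0.05, edgeR adjusted p = 0.254). Mcm4, Mcm5 and Mcm6 were lower in both knockout libraries than in either wild-type library, as were 30.5% of all tested genes. The groups overlapped in Mcm2, Mcm3 and Mcm7, and none of the 6 was called. Cdc45, which completes the helicase with MCM and GINS, was at 84.7 and 92.8 CPM in wild type and 92.2 and 96.3 CPM in knockout (0.09, SE 0.06).

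Gins2 was the 1 called gene of the 12 in this role (8.33%, beside 23.6% of all tested genes). It encodes a subunit of the 4-part GINS ring and fell from 48.8 and 47.0 to 38.0 and 40.3 CPM, with no overlap between the groups (log2 fold change -0.29, SE 0.07, edgeR adjusted p = 0.006). Its partners were not called: Gins1 was at -0.12 (SE 0.06), Gins3 at -0.02 (SE 0.10) and Gins4 at 0.09 (SE 0.06). GINS proteins act in 1 complex, and their RNA values here lay on both sides of 0. Gins2 (chromosome 8, 120581266 to 120589075) overlaps the annotated span of Gse1 on the other strand, and the strand setting of the counting is not given in the sources used here. It was no longer called without knockout replicate 1 (adjusted p = 0.129) and without knockout replicate 2 (0.0787).

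All 5 clamp loader genes were uncalled, with 0 at an unadjusted p under 0.05 in edgeR and none called by DESeq2 or limma-voom, and their intervals all lay within 1.25-fold. Rfc3, the highest per kilobase (56.9 CPM per kb), was at 74.9 and 81.1 CPM in wild type and 69.0 and 74.9 CPM in knockout (-0.12, SE 0.06). It was called lower without wild-type replicate 1 (-0.17, edgeR adjusted p = 0.0391). The remaining 4 ran from -0.06 for Rfc1 to 0.05 for Rfc2.

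Among the kinases and cyclins of S phase, Cdc7 and Ccne1 rose and the other 4 tested genes did not pass the test. The share called was 33.3%, beside 23.6% of all tested genes. Cdc7, the kinase that phosphorylates the MCM ring at origins, rose from 46.2 and 45.7 to 54.3 and 56.9 CPM (0.27 as log2 fold change, SE 0.06, edgeR adjusted p = 0.00579). Ccne1, which encodes cyclin E1, rose from 69.1 and 65.5 to 76.7 and 78.9 CPM (0.21, SE 0.06, adjusted p = 0.0186). Both were higher in both knockout libraries than in either wild-type library, as were 30.0% of all tested genes. Ccne2, which encodes the second E-type cyclin, pointed the other way at 60.4 and 63.1 CPM in wild type and 57.7 and 55.5 CPM in knockout, without passing the test (-0.13, SE 0.06, adjusted p = 0.162). Ccna2, the most abundant cyclin here, was at 458 and 451 CPM in wild type and 447 and 432 CPM in knockout (-0.05, 95% interval -0.16 to 0.06). The call of Cdc7 was lost without knockout replicate 2 (0.24, adjusted p = 0.156). That of Ccne1 was lost without knockout replicate 1 (0.23, adjusted p = 0.116), without knockout replicate 2 (0.19, adjusted p = 0.257) and with DESeq2 (adjusted p = 0.0996).

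Of the 8 E2F genes, E2f6 rose and 7 were not called (12.5% called, beside 23.6% of all tested genes). E2f6, a repressor that lacks the retinoblastoma-binding part, rose from 25.2 and 25.8 to 31.3 and 31.6 CPM (0.30 as log2 fold change, SE 0.07, edgeR adjusted p = 0.00801). Among the activators, E2f1 was at 67.6 and 66.1 CPM in wild type and 61.6 and 60.1 CPM in knockout (-0.13, adjusted p = 0.118). E2f2 was at 238 and 230.1 against 235 and 229 CPM (-0.01), and E2f3 stood at -0.11 (SE 0.06). E2f4, a repressor that works with the pocket proteins and the most abundant E2F gene per kilobase (150.0 CPM per kb), was at 296 and 276 CPM in wild type and 313 and 311 CPM in knockout (0.13, adjusted p = 0.103). The atypical repressor E2f8 was at 202 and 186 against 178 and 174 CPM (-0.14, adjusted p = 0.0895), and E2f7 at -0.03. E2f6 lost its call without knockout replicate 1 (adjusted p = 0.0686), without knockout replicate 2 (0.121) and with DESeq2 (0.0895). E2f4 was called higher without wild-type replicate 1 (0.18, adjusted p = 0.00333) and E2f8 lower without wild-type replicate 2 (-0.20, adjusted p = 0.00383).

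None of the 9 mitotic kinases, cyclins and phosphatases was called, and all their intervals lay within 1.25-fold. The same edgeR test gave 2 at an unadjusted p under 0.05, Ccnb2 and Cdc25b, and DESeq2 and limma-voom called none after adjustment. Plk1, the highest per kilobase (122 CPM per kb), was at 262 and 263 CPM in wild type and 279 and 272 CPM in knockout (log2 fold change 0.07, 95% interval -0.04 to 0.18). Ccnb1, which encodes cyclin B1, was at 215 and 227 CPM in wild type and 220.0 and 221 CPM in knockout (-0.0024, 95% interval -0.11 to 0.11), and its kinase Cdk1 was at 181 and 192 against 176 and 183 CPM (-0.06, SE 0.05). In both, the knockout values fell inside or overlapped the range of the wild-type pair. Ccnb2, the gene of cyclin B2, was at 183 and 192 CPM in wild type and 170.5 and 170.2 CPM in knockout (-0.14, edgeR adjusted p = 0.0731), and was called lower without wild-type replicate 1 (-0.17, adjusted p = 0.0074). Cdc25b, which encodes a phosphatase that activates CDK1, was called lower without wild-type replicate 2 (-0.14, adjusted p = 0.0219). The kinases of the spindle, Aurka (0.12, SE 0.05) and Aurkb (0.08, SE 0.05), did not pass the test. Both were higher in both knockout libraries than in either wild-type library, as were 30.0% of all tested genes.

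In the spindle checkpoint, 1 of 5 genes rose (20% called, beside 23.6% of all tested genes). Bub1b, which encodes the checkpoint protein BUBR1, rose from 231 and 225 to 254 and 264 CPM (0.18 as log2 fold change, SE 0.05, edgeR adjusted p = 0.0186). Bub1, the related kinase gene, was at -0.11 (SE 0.06), and Bub3, the partner of both and the highest per kilobase (129 CPM per kb), was at 279 and 295 CPM in wild type and 284 and 286 CPM in knockout (-0.01, SE 0.05). Cdc20, the target of the checkpoint, was at 213 and 209 against 230 and 224 CPM (0.10, adjusted p = 0.164). Ndc80, which encodes the microtubule-binding part of the kinetochore, was at 50.4 and 57.4 against 46.5 and 47.4 CPM (-0.20, adjusted p = 0.0574), and was called lower without wild-type replicate 1 (-0.29, adjusted p = 0.0021). Without wild-type replicate 1, Bub1 was also called lower (-0.16, adjusted p = 0.0253). The call of Bub1b was lost without knockout replicate 1 (adjusted p = 0.131) and without knockout replicate 2 (0.315).

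Of the 20 centromere protein genes, 3 rose and 3 fell (30.0% called, near the 23.6% of all tested genes). Cenpv (chromosome 11, 62524944 to 62539869) had 97 and 98 reads in wild type and 371 and 314 reads in knockout. This was 4.87 and 4.94 CPM against 19.0 and 16.2 CPM, 3.59-fold higher (log2 fold change 1.84, SE 0.13, edgeR adjusted p = 8.52e-08). CENP-V is named for its place at the centromere and is not a subunit of the constitutive kinetochore network. It was called in all 11 alternative fits, with log2 fold changes from 1.73 to 1.96. Cenpj (chromosome 14, 56526761 to 56575489), which encodes the centriole duplication protein CPAP, fell from 25.6 and 24.9 to 18.4 and 18.7 CPM (-0.44, SE 0.08, adjusted p = 0.000962) and was also called in all 11, the only other member of which this held.

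Among the other called centromere protein genes, changes were smaller and went both ways. Cenpn, whose product reads the CENP-A nucleosome, rose from 75.3 and 78.3 to 93.6 and 99.2 CPM (0.33 as log2 fold change, SE 0.06, edgeR adjusted p = 0.000753). Cenpx, which encodes a small histone-fold protein, rose from 83.0 and 82.1 to 97.0 and 98.5 CPM (0.24, SE 0.05, adjusted p = 0.00432), while its fold partner Cenps stood at -0.01 (SE 0.07). Cenpa, which encodes the histone H3 variant that marks the centromere, fell from 162 and 176 to 147 and 144 CPM (-0.22, SE 0.06, adjusted p = 0.0116). Cenpe, a kinesin of the kinetochore, fell from 126 and 121 to 107 and 108 CPM (-0.20, SE 0.05, adjusted p = 0.0132). The groups did not overlap in any of these 4, nor in 60.5% of all tested genes. The 14 uncalled genes ran from -0.16 for Cenpl to 0.21 for Cenpu. Cenpi, on the X chromosome, was at 27.0 and 28.8 against 32.1 and 32.1 CPM (0.20, adjusted p = 0.0583), and passed once wild-type replicate 2 was left out (0.25, adjusted p = 0.038). Without knockout replicate 1 the calls of Cenpx (adjusted p = 0.0641), Cenpa (0.128) and Cenpe (0.198) were lost, and without knockout replicate 2 those of Cenpn (0.0827), Cenpx (0.136), Cenpa (0.241) and Cenpe (0.182). Without wild-type replicate 1, Cenpl was called lower (-0.33, adjusted p = 0.015), and without wild-type replicate 2, Cenpf was (-0.15, adjusted p = 0.0466).

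**Figure D3:**
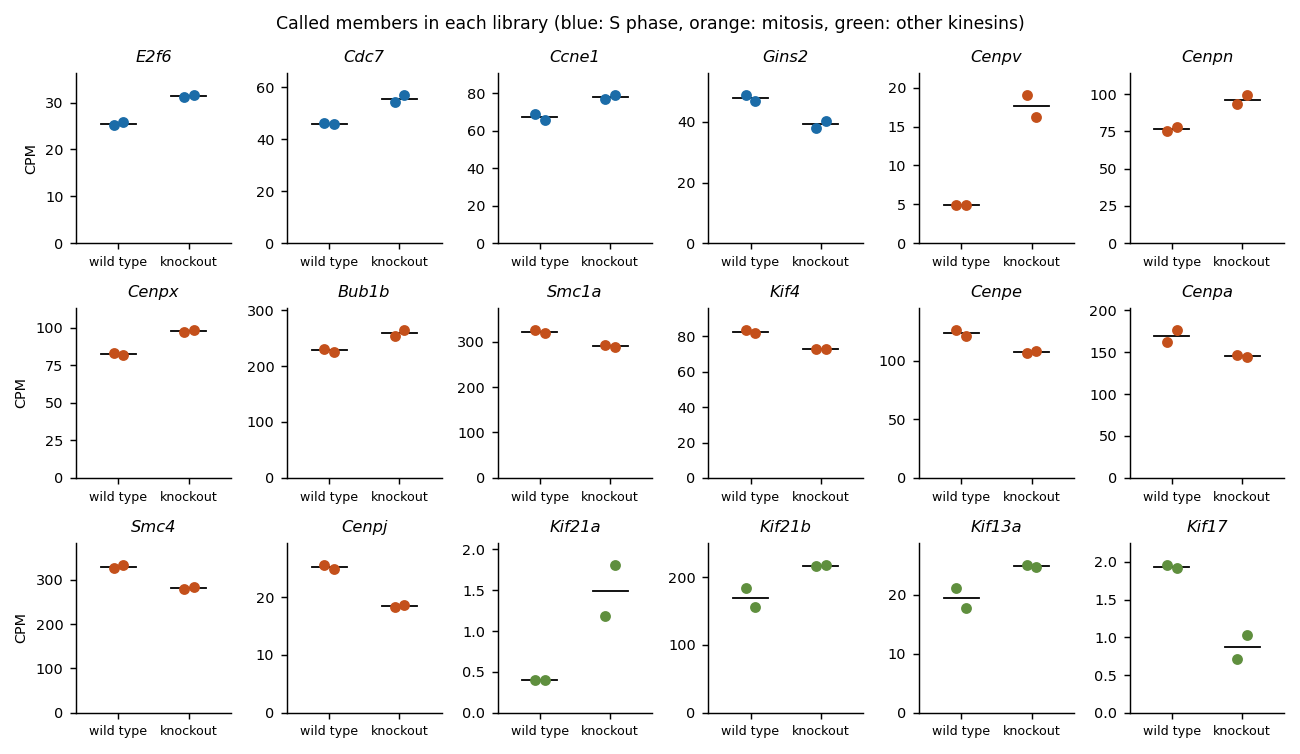
Level in CPM (vertical axes from 0) of the 18 called members in each library, with points for libraries and a line for the mean of each genotype. Cenpv, Kif21a and Kif17 differ by over 2-fold, and the other 15 by 1.36-fold at most.

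Of the 11 mitotic kinesins, Kif4 fell and 10 were not called (9.09% called, beside 23.6% of all tested genes). All 11 intervals lay within 1.25-fold. Kif4, a chromosome-bound motor gene on the X chromosome, fell from 83.5 and 81.9 to 72.6 and 72.7 CPM (-0.19 as log2 fold change, SE 0.06, edgeR adjusted p = 0.0245). Kif22, the highest per kilobase (62.8 CPM per kb), was at 134 and 133 against 134 and 130.4 CPM (-0.01, SE 0.05), and Kif11, the motor that separates the spindle poles, at 301 and 290.4 against 285 and 271 CPM (-0.09, SE 0.05). The call of Kif4 was lost without knockout replicate 1 (adjusted p = 0.211), without knockout replicate 2 (0.243) and with DESeq2 (0.144). Kif4 overlaps Pdzd11 on the other strand, and Y-linked genes differed between these libraries as given above.

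All 6 tested SMC genes were lower in both knockout libraries than in either wild-type library, as were 30.5% of all tested genes. Of the 6, 2 passed the test (33.3%, beside 23.6% of all tested genes). Smc4, a condensin subunit gene, fell from 327 and 334 to 280.3 and 283 CPM (-0.23 as log2 fold change, SE 0.05, edgeR adjusted p = 0.00404). Smc1a, a cohesin subunit gene on the X chromosome, fell from 325 and 320 to 292 and 288 CPM (-0.15, SE 0.05, adjusted p = 0.041). The SMC partners of these 2 proteins were not called. Smc2 of condensin was at 187 and 181 against 170.5 and 166 CPM (-0.13, adjusted p = 0.0879), and Smc3 of cohesin at 241 and 245 against 235 and 221 CPM (-0.09, adjusted p = 0.238). Among other subunit genes, outside the rule, Rad21 of cohesin (-0.16, edgeR adjusted p = 0.0372) and Ncapg2 of condensin (-0.19, adjusted p = 0.0326) were called lower. Ncapd2, Ncapd3, Ncapg, Ncaph, Ncaph2, Stag1 and Stag2 were not called. Smc5 (-0.12, SE 0.06) and Smc6 (-0.07, SE 0.05), which form a complex of DNA repair, were not called either. The summed level of the SMC genes was 1309 and 1313 CPM in wild type and 1197 and 1176 CPM in knockout. Smc4 lost its call without knockout replicate 1 (adjusted p = 0.133) and replicate 2 (0.142), as did Smc1a (0.289 and 0.372), which was not called by DESeq2 either (0.0828). Smc2 was called lower without wild-type replicate 2 (-0.16, adjusted p = 0.0195).

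**Figure D4:**
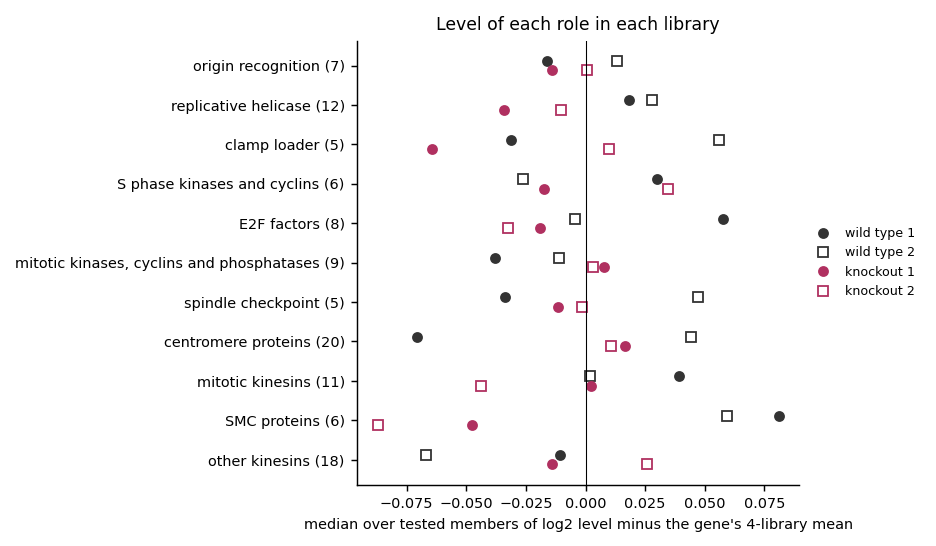
Median over the tested members of a role of the log2 level minus the gene's mean over the 4 libraries, by library (filled circles replicate 1, open squares replicate 2). In the SMC role the wild-type libraries lie at 0.08 and 0.06 and the knockout libraries at -0.05 and -0.09.

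The median levels of the lists differed little between libraries. Over all S phase genes, the median deviation of a library from the 4-library mean of each gene was 0.0018 and 0.01 in wild type and -0.02 and 0.00089 in knockout (log2). Over the mitosis genes it was 0.002 and 0.04 in wild type and 0.0025 and -0.03 in knockout. The genotypes did not overlap in the S phase medians and overlapped in the mitosis medians, and in both the shift was about the size of the gap between libraries of 1 genotype. Summed levels were 5788 to 5795 CPM in wild type against 5660.0 to 5737 CPM in knockout for S phase, and 6110.0 to 6137 against 5969 to 6009 CPM for mitosis.

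Kinesins with other roles, which carry cargo or act in cilia and axons, were less abundant (median level at the 29.6th percentile of tested genes, against the 79.6th for S phase and the 77.5th for mitosis genes). Of the 18 tested, 4 were called (22.2%, near the 23.6% of all tested genes). Kif21b, a kinesin gene of the KIF21 family that restrains microtubule growth, was at 183 and 156 CPM in wild type and 216 and 218 CPM in knockout (log2 fold change 0.35, SE 0.07, edgeR adjusted p = 0.00138). Its relative Kif21a was near the filter, with 8 and 8 reads in wild type and 23 and 35 in knockout (1.88, SE 0.44, adjusted p = 0.0035). Both KIF21 genes were higher in both knockout libraries than in either wild-type library, as were 30.0% of all tested genes. Kif13a, which encodes a motor of endosome transport, rose from 21.2 and 17.8 to 25 and 24.6 CPM (0.35, SE 0.09, adjusted p = 0.0132), and its span overlaps an annotated gene on the other strand. Kif17, known from dendrites and cilia, fell from 39 and 38 reads to 14 and 20 (-1.14, SE 0.32, adjusted p = 0.0158), and its span overlaps that of Sh2d5 on the same strand. Kif5b, the conventional kinesin heavy chain gene and the highest of this role per kilobase (23.4 CPM per kb), was at 152 and 143 against 138 and 131 CPM (-0.13, adjusted p = 0.118). Kif21b and Kif21a lost their calls without knockout replicate 2 (adjusted p = 0.107 and 0.0992), and Kif17 without knockout replicate 1 (0.163), replicate 2 (0.0692) and with DESeq2 (0.153). Kif13a was not called without wild-type replicate 2 (0.23, adjusted p = 0.0876), nor without knockout replicate 1 (0.0958), replicate 2 (0.154) or with DESeq2 (0.0935). Without wild-type replicate 2, Kif5b was called lower (-0.17, adjusted p = 0.0167). Without wild-type replicate 1, Kif16b (0.29, adjusted p = 0.0349) and Kif1c (0.20, adjusted p = 0.0306) were called higher.

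**Figure D5:**
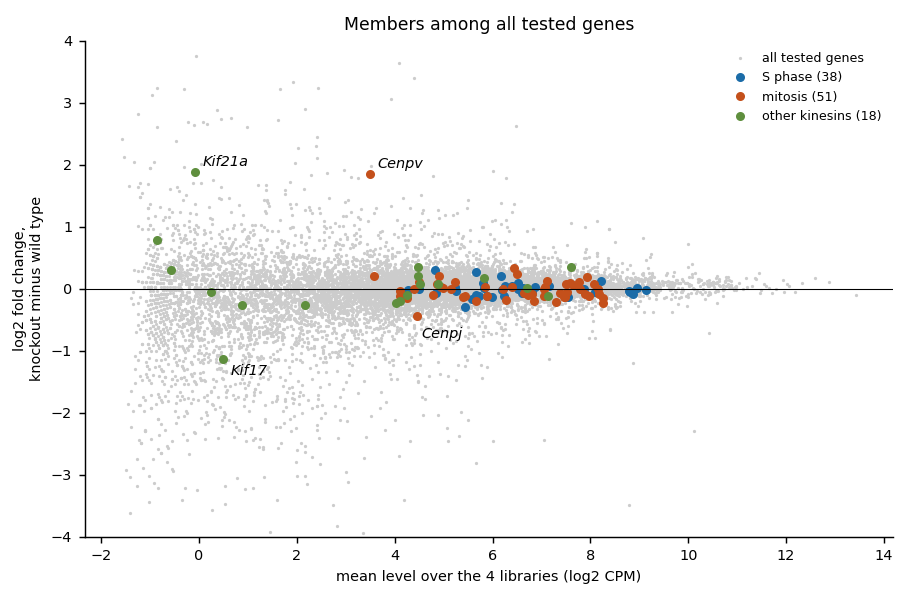
Log2 fold change (vertical axis) against the mean level over the 4 libraries (log2 CPM, horizontal axis) for all tested genes in grey and for the members in colour. The S phase and mitosis members lie close to 0 over their range of levels, apart from Cenpv, and genes beyond 4 in either direction are not drawn.

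The wider pathway gave like counts. Of 44 further S phase genes (polymerases, nucleotide supply, licensing and E2F partners), 3 rose and 4 fell, with a median log2 fold change of -0.02. Of 75 further mitosis genes (kinetochore, condensin, cohesin, spindle and anaphase-promoting complex), 3 rose and 7 fell, with a median of -0.0046. The shares called were 15.9% and 13.3%, beside 23.6% of all tested genes. The dimer partners of E2F went both ways: Tfdp1 rose from 426 and 416 to 478 and 471 CPM (0.17, SE 0.05, edgeR adjusted p = 0.0226), and Tfdp2 fell from 52.8 and 49.2 to 39.5 and 42.3 CPM (-0.32, SE 0.07, adjusted p = 0.00391). Cdt1, which loads MCM with CDC6, rose from 106 and 104 to 121 and 119 CPM (0.20, SE 0.05, adjusted p = 0.0146), and Pole2, a subunit gene of the leading-strand polymerase, rose by 0.23 (SE 0.07). Its relative Pole4 fell from 54.5 and 63.9 to 44.9 and 44.7 CPM (-0.40, SE 0.08, adjusted p = 0.00145), and Rrm2, which encodes the small subunit of ribonucleotide reductase, fell by 0.21 (SE 0.05) on the log2 scale. Among mitosis genes, Anapc11 (0.36, SE 0.07) rose and Anapc5 (-0.20, SE 0.05) fell, both subunits of the anaphase-promoting complex, and its partner enzyme gene Ube2c rose (0.18, SE 0.05), as did the kinetochore gene Pmf1 (0.19, SE 0.06). The spindle genes Dlgap5 (-0.23, SE 0.06) and Ckap2 (-0.24, SE 0.06) fell. Each of these 12 calls was lost without knockout replicate 2, with adjusted p from 0.0537 for Anapc11 to 0.421 for Pmf1. All but Anapc11 and Pole4 were lost without knockout replicate 1, and Pole2 also without wild-type replicate 1 (0.0682). DESeq2 did not call Cdt1, Pole2, Dlgap5 or Ckap2 (adjusted p from 0.054 to 0.198).

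The N-myc driver was near equal between the genotypes while its relative was not. Mycn was at 1013 and 857 CPM in wild type and 945 and 921 CPM in knockout, with the knockout values inside the wild-type range, and Myc was at 86.7 and 79.3 CPM against 35.2 and 33.6 CPM (-1.27 as log2 fold change, SE 0.07, edgeR adjusted p = 8.90e-09). Leaving out wild-type replicate 1 made Mycn higher (0.12, adjusted p = 0.0314), and leaving out wild-type replicate 2 made it lower (-0.12, adjusted p = 0.0358). The counts do not separate introduced from endogenous Mycn.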

How the data were processed

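The values are estimated counts per gene symbol, deposited by the authors unscaled in 1 table for each of 4 libraries; 64.5% to 65.6% are whole. Tools in the submitters' processing notes are HISAT2 2.0.4 and DESeq2 1.4.5, with GRCm38 as build and no roles stated. Which counter, annotation, strand setting or filter was applied is not given in these sources. Per the labels' protocols, RNA was extracted with Trizol.

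Libraries were grouped by labelled genotype. Counts were rounded and tested with edgeR 4.0.16 (quasi-likelihood, R 4.3.3) with TMM factors, filterByExpr at a minimum count of 10, no covariate and Benjamini-Hochberg adjustment over the 12123 tested of 16613 symbols; 4490 fell below the filter. Standard errors and 95% intervals came from the fitted model. An exact permutation test of 2 against 2 cannot go below p = 0.333 and was not used. Lengths were those of the longest APPRIS principal GENCODE M21 transcript. Coordinates are RefSeq's (GRCm38.p6, 99.6% of symbols matched). Library totals were 19692504.61 to 19758671.06 reads for wild type and 19581574.53 to 19605800.07 for knockout, so 3 reads, the limit that a count of 0 allows, equal 0.152 to 0.153 CPM, for counting error only. Alternatives were the replicate block, DESeq2 1.42.0, limma-voom (limma 3.58.1), RLE and upper-quartile factors, 2 other filters, a fold threshold and leaving out each library, the lone library being assumed to vary like the other pair. The procedure was tested on simulated counts (11978 tested genes, 200 changed, of which 50 by each fold, 9 false among 191 calls). The members, roles, lists and alternatives were chosen with earlier results of these data known. Values for each library, with fold change and test, go to called members and the most abundant of each role, to Anp32b, Mycn and Myc, and in the wider lists the 3 called genes of smallest p in each direction are named. Further condensin and cohesin subunit genes of those lists are named beside the SMC genes.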

Additional observations from a re-analysis of the deposited data

How the results depend on the processing

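The replicate numbers do not pair the libraries by any label (correlation of same-numbered libraries' deviations 0.0476 across tested genes). With the replicate block, 18 S phase and mitosis genes were called in place of 14, S phase genes lower being 2 in place of 1; over all tested genes the block gave 1644 higher and 1779 lower in place of 1323 and 1533. The block added calls of Ccnb2, Cenpi, E2f8, Kif1c and Ndc80, and no call of a member was lost under it. With DESeq2, 1 S phase gene was higher, 3 mitosis genes and 0 other kinesins were lower, and 729 and 847 of all tested genes were higher and lower. With no filter, 0 S phase and 2 mitosis genes were lower, 0 other kinesins were higher and 0 lower, and over all genes 547 were higher and 744 lower; that fit tests more genes. With a filter of 10 CPM in 2 libraries, 0 other kinesins were lower, Kif17 not being tested, and the median log2 fold change of S phase genes was -0.0451. With upper-quartile normalization, 2 S phase and 11 mitosis genes were lower, and the median log2 fold change of S phase genes was -0.0563 and the median log2 fold change of mitosis genes -0.044; under this scaling the median of all tested genes was -0.028, and 1039 of them were higher and 1767 lower (63% of calls lower, beside 53.7%). A fold change of at least 1.5 left 0 S phase genes higher and 0 lower, 1 mitosis gene higher (Cenpv) and 0 lower, 1 other kinesin higher, and 319 and 766 over all genes. With limma-voom and RLE normalization no member gained or lost a call. Over the leave-outs, S phase genes higher ran from 0 to 4 and lower from 0 to 3, mitosis genes higher from 1 to 5 and lower from 1 to 10, other kinesins higher from 0 to 5 and lower from 0 to 2, all tested genes higher from 372 to 1676 and lower from 579 to 1712, the S phase median from -0.0359 to -0.00379 and the mitosis median from -0.0533 to -0.0171. Without knockout replicate 1, 12 of the 18 members' calls were lost, and without knockout replicate 2, 16; these fits take their spread from the wild-type libraries, which differed more. Mycn ran from -0.122 to 0.123. The cause of these changes was otherwise not tested. No called member changed sign; of the uncalled members, up to 15 did so in 1 fit (without wild-type replicate 2). Members under about 2 CPM, such as Kif17 and Kif21a, are limited by depth.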
